A study of Mus musculus with 6 samples.

Results

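The genes described here are 6 members of the Nodal pathway in mouse embryonic stem cells, namely the ligands Nodal and Gdf3, the co-receptor Tdgf1 (Cripto) and the antagonists Lefty1, Lefty2 and Cer1, out of 20375 protein-coding genes that could be placed in the Hi-C data. They were chosen because Lefty1, Lefty2 and Cer1 had a higher subcompartment rank after a knockdown, so the ranks at these genes are given as a description and without a test. Hi-C records which DNA segments lie close together in the nucleus. It was carried out in E14TG2a cells, a male wild-type mouse embryonic stem cell line grown in serum with leukemia inhibitory factor. All cells were transfected with esiRNA, a pool of short interfering RNAs made by enzymatic digestion, and were collected after 48 h. The esiRNA targeted Smarca4, which encodes Brg1, the ATPase of the esBAF remodelling complex (Brg1KD, 2 libraries), Ino80, which encodes the ATPase of INO80, another remodelling complex (Ino80KD, 2 libraries), or EGFP, which these cells lack (control, 2 libraries). Replicates 1 and 2 of each group came from batches 1 and 2. The labels do not say whether they were separate cultures, so the spread between them may be technical. Hi-C gives no transcript level, so neither the depth of the knockdowns nor the expression of any gene named here was measured, and the identity of the cells could be checked only by the position of marker genes.

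Nodal is a secreted ligand of the TGF-beta family. It binds activin receptors together with an EGF-CFC co-receptor such as Tdgf1, and the signal reaches DNA through Smad2 or Smad3 with Smad4 and partners such as the forkhead factor Foxh1. Lefty1 and Lefty2 are targets of the pathway that block it at the receptor, which closes a negative feedback loop, and Cer1 is a secreted antagonist of Nodal that is best known from the anterior visceral endoderm and the endoderm. In embryonic stem cells the pathway is active and its genes respond early when cells leave pluripotency towards mesendoderm. The readout at each gene is its subcompartment, 1 of 8 classes per 50 kb bin, from B.2.2 (the most B-like, inactive chromatin) through B.2.1, B.1.2, B.1.1, A.2.2, A.2.1 and A.1.2 to A.1.1 (the most A-like, active chromatin). A difference of 1 class is a step of 1 in this order, and B.1.1 and A.2.2 lie on the 2 sides of the border between B and A.

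Both knockdowns were accompanied by a higher class at the neighbouring genes Lefty1 and Lefty2, and Ino80KD also by a higher class at Cer1. Lefty1 and Lefty2 were in A.1.1 in all 4 knockdown libraries, against A.1.2 in both controls. Cer1 was in A.2.2 in both Ino80KD libraries and in B.1.1 in both Brg1KD libraries, against B.1.1 in both controls. The ligand Nodal and the co-receptor Tdgf1 were in A.1.1 in all 6 libraries, and Gdf3 left A.1.1 in 1 library of Brg1KD. A gene was counted as apart when both libraries of a knockdown lay beyond both controls. Towards A this held for 2 of the 6 genes in Brg1KD, where it held for 3.29% of all protein-coding genes, and for 3 of 6 in Ino80KD, where it held for 1.97% of all. Since the genes were picked for these ranks, the counts are not evidence of an excess. None of the 6 was apart towards B, against 4.34% of all genes in Brg1KD and 2.86% in Ino80KD. Of the 56 bins within 250 kb of the genes, 2 were above both controls in Brg1KD and 5 in Ino80KD, against 3.13% and 1.76% of all bins, and none was below, against 7.19% and 4.5%. The bins above control are those of Lefty1 and Lefty2 and, in Ino80KD, also adjoining bins at Cer1. They carry the ranks for which the genes were picked, so these counts are not evidence of an excess either. With 2 libraries against 2 an exact two-sided permutation test cannot give a p below 0.333. A label is an average over many cells, so a change in a share of the cells and a smaller change in every cell cannot be told apart.

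**Figure D1:**
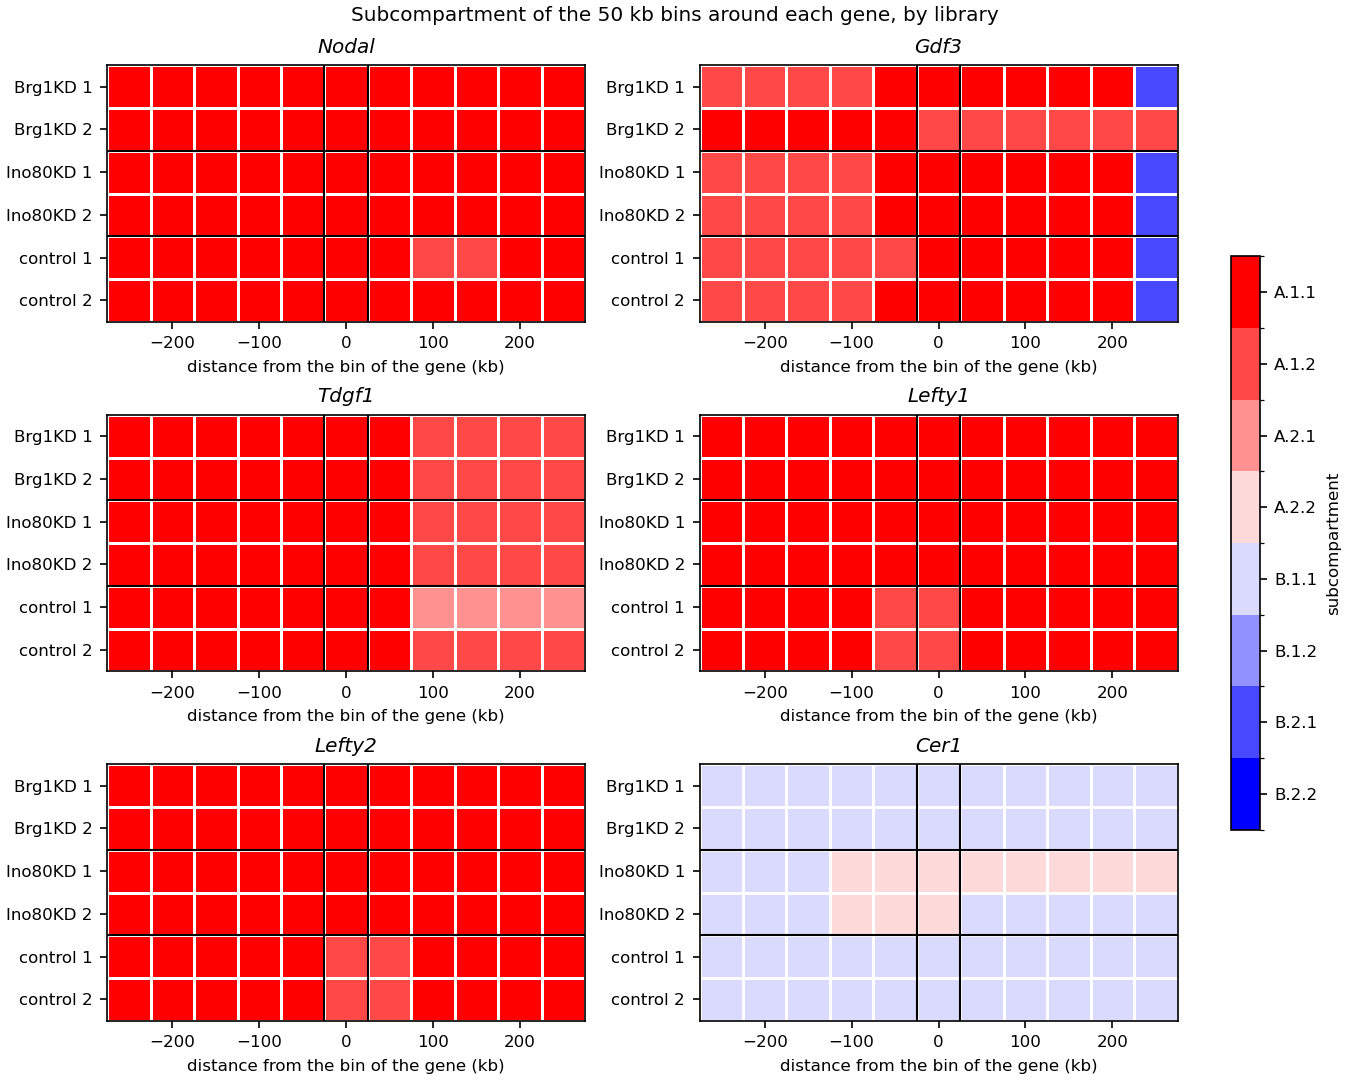
Subcompartment of each 50 kb bin within 250 kb of the 6 genes, 1 panel per gene with the 6 libraries as rows and the distance from the bin of the gene in kb on the horizontal axis; the vertical lines enclose the bin of the gene. The 2 paler bins at Lefty1 and Lefty2 are A.1.2 and appear in both controls alone. The A.2.2 bins at Cer1 appear in Ino80KD alone, some of them in both libraries and the others in replicate 1 only.

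RefSeq promoter sequence was matched for 3 of the 6 genes, Nodal, Tdgf1 and Cer1, and not for Gdf3, Lefty1 and Lefty2. The 250 bases before each start are shown because the promoter of Cer1 lies in the bin that crossed the border between B and A, that of Nodal lies beside a loop anchor listed in Brg1KD, and that of Tdgf1 belongs to a gene whose class was the same in all 6 libraries. They are read 5′ to 3′ on the strand of the gene (GRCm38.p6), for Cer1 from the minus strand of chr4:82885152-82885401, for Nodal from the plus strand of chr10:61417722-61417971 and for Tdgf1 from the minus strand of chr9:110946159-110946408. Capitals mark TGTNNATT, the letters of a Foxh1 motif, and CAGAC, the letters of a Smad element, on either strand.
Cer1: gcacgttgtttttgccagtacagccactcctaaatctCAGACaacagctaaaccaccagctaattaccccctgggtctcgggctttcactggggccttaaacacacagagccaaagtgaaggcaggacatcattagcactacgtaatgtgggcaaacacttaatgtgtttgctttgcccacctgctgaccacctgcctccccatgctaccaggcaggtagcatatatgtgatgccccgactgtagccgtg
Nodal: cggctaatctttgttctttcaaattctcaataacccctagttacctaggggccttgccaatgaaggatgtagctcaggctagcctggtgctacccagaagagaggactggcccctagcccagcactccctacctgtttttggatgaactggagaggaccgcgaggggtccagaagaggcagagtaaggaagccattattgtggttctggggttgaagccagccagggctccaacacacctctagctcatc
Tdgf1: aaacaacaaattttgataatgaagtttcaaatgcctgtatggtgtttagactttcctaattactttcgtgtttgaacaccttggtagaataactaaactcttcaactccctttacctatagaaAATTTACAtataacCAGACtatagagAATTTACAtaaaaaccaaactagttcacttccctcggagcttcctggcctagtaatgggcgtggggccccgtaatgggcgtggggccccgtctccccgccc
The window of Cer1 holds CAGAC 1 time, starting 213 bases before the start of the gene. That of Tdgf1 holds CAGAC 1 time and TGTNNATT 2 times, and the matches do not overlap. The Nodal window holds neither. Among 25748 autosomal promoter windows of the same length, CAGAC occurs in 42.0% and TGTNNATT in 11%. GGCGC (a GC-rich Smad element, in 32.6%), ATTTGCAT (the octamer, in 1.63%) and TATAAA (the TATA box, in 13.0%) occur in none of the 3 windows. A match of letters is a description and no measure of binding. The windows of Cer1, Nodal and Tdgf1 are 51.6%, 53.2% and 42.0% GC, where the median over all windows is 52.4%.

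Nodal (chromosome 10, 61417972 to 61425338, mm10), the ligand after which the pathway is named, was in A.1.1 in both Brg1KD libraries, in both Ino80KD libraries and in both controls. It lay inside an A.1.1 segment of 2400 kb in each of the 4 knockdown libraries, against 450 kb in control replicate 1 and 2350 kb in control replicate 2. The shorter segment came from 2 bins of A.1.2 in control replicate 1, over most of Lrrc20 and the edge of Npffr1. Control replicate 2 was in A.1.1 there, so the groups overlapped. Of the 11 bins within 250 kb of Nodal, 9 had the same label in all 6 libraries.

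Gdf3 (chromosome 6, 122605403 to 122610087) encodes a TGF-beta family ligand and shares its neighbourhood with the pluripotency genes Dppa3 and Nanog. It was in A.1.1 in Brg1KD replicate 1 and A.1.2 in Brg1KD replicate 2, in A.1.1 in both Ino80KD libraries, and in A.1.1 in both controls. Brg1KD averaged 7.5 ± 0.707 on the scale of 1 to 8 (SD, n = 2), against 8 in both controls, so the difference of -0.5 classes rests on 1 library. Leaving out Brg1KD replicate 2 gave 0, and leaving out Brg1KD replicate 1 gave -1. In Brg1KD replicate 2 the A.1.2 segment ran from 122600001 to 122900000, so it also took in Nanog, and it ended 50 kb further than the segment of the other libraries. The last bin, which holds part of C3ar1, the receptor of complement C3a, was A.1.2 in Brg1KD replicate 2 and B.2.1 in the other 5 libraries. The 4 bins from 122350001 to 122550000, on the other side of Gdf3, were A.1.1 in Brg1KD replicate 2 and A.1.2 in the other 5 libraries. A distance of 5 classes or more between Brg1KD replicate 2 and 5 agreeing libraries occurred in 3 of 18261 bins.

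Tdgf1 (chromosome 9, 110939608 to 110946158), the membrane-anchored co-receptor of Nodal, was in A.1.1 in all 6 libraries. The bin lies near the end of its A.1.1 segment, which stopped at 111000000 in every library, 53.8 kb beyond the gene. The 4 bins after it, with Ltf, Ccrl2 and Lrrfip2, were A.1.2 in all 4 knockdown libraries and in control replicate 2, and A.2.1 in control replicate 1. Over the 11 bins around Tdgf1 this gave 0.18 classes above control in either knockdown, which rests on that 1 control library. The same holds around Nodal, where the mean over 11 bins was 0.09 classes above control in either knockdown.

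Lefty2 (chromosome 1, 180893108 to 180899107) and Lefty1 (180935022 to 180938401), the feedback inhibitors of Nodal, lie in neighbouring bins of a single segment and are not independent of each other. All 4 knockdown libraries placed them in an A.1.1 segment of 700 kb, from 180550001 to 181250000, with the same ends in each of the 4. In both controls they lay in an A.1.2 segment of 100 kb, from 180850001 to 180950000, with A.1.1 on both sides. The groups did not overlap, and the difference was 1 class in Brg1KD and in Ino80KD, with the same label in both libraries of each group. The segment also holds Sde2, which acts in genome maintenance, and the start coordinate of Tmem63a, an ion channel gene. The other 9 of 11 bins around Lefty1 were A.1.1 in all 6 libraries, among them that of Mixl1, a mesendoderm target of the pathway. Lefty1 and Lefty2 are tandem copies of similar sequence, and the treatment of reads that fit both was not stated in the sources used here.

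The bins with the control label of Lefty1 and Lefty2 were counted whatever label lay beside them. Of 3292 bins that were A.1.2 in both controls, 59 (1.79%) were A.1.1 in all 4 knockdown libraries, and 110 (3.34%) were A.2.1 or lower in all 4. Among 2324 protein-coding genes with A.1.2 in both controls, 79 (3.40%), Lefty1 and Lefty2 included, were A.1.1 in all 4 knockdown libraries. An A.1.2 segment of at most 100 kb with A.1.1 on both sides was found 9 times in control replicate 1 and 12 times in control replicate 2. The segment of Lefty1 and Lefty2 was the 1 segment of this kind with the same ends in both controls. This search was made after the values at Lefty1 and Lefty2 had been seen, and it describes how short the segment is for these data.

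Cer1 (chromosome 4, 82881751 to 82885151) was the 1 gene of the 6 outside A in the controls. It was in B.1.1 in both Brg1KD libraries and in A.2.2 in both Ino80KD libraries, against B.1.1 in both controls. In Brg1KD and in control the B.1.1 segment had the same ends in all 4 libraries, from 82550001 to 83200000. In Ino80KD the A.2.2 segment began at 82750001 in both libraries. It ended at 83200000 in replicate 1, where it met A.1.1, and at 82900000 in replicate 2, where B.1.1 followed. In 3 of the 11 bins around Cer1 both Ino80KD libraries therefore lay above both controls, and in the 5 bins that follow replicate 1 alone did. The mean over the 11 bins was 0.50 classes above control in Ino80KD and 0 in Brg1KD. These 3 bins cover Cer1, the palmitoyltransferase gene Zdhhc21 and the first bases by coordinate of Frem1, which encodes an extracellular matrix protein.

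The combination of labels at Cer1 was rare. Cer1 was picked for its rank in Ino80KD, so the counts describe its pattern and are not evidence for it. Of 2614 bins in B.1.1 in both controls, 55 (2.10%) were A.2.2 or higher in both Ino80KD libraries, and 298 (11.4%) were B.1.2 or lower in both. Only 4 bins (0.153%) were A.2.2 or higher in both Ino80KD libraries while B.1.1 in both Brg1KD libraries. 3 of these 4 are the adjoining bins at Cer1, which belong to 1 segment and are not independent. The other lies at Mrps33 on chromosome 6 (39800001 to 39850000), named after its values were seen. It was A.1.1 in both Ino80KD libraries, where Cer1 was A.2.2, so it does not have the labels of Cer1. The converse, A.2.2 or higher in both Brg1KD libraries and B.1.1 in both Ino80KD libraries, was seen in 95 bins. Both knockdowns were set against the same controls. Of all protein-coding genes, Zdhhc21 was the 1 other gene with the 6 labels of Cer1, whereas 77 others shared those of Lefty1 and Lefty2. Zdhhc21 lies in the same segment as Cer1.

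Chromatin loops were given as 1 list per group, with 6013 loops in Brg1KD, 5475 in Ino80KD and 5903 in control. The lists have no score and no replicate, so a loop that is missing from a list has no test behind it, and no depth is known. Between 2 lists, 41.3% to 50.0% of the loops of a list were identical to a loop of the other. Of the Brg1KD loops 44.9% were also in the control list, as were 50.0% of the Ino80KD loops. With both anchors allowed to differ by up to 20 kb these shares were 78.1% and 83.6%. An anchor within 50 kb of the gene was present for 4 of the 6 genes in Brg1KD, 3 in Ino80KD and 4 in control, against 56.3%, 53.7% and 56.2% of all protein-coding genes in these lists, so with 6 genes these counts lie near the background. Just inside this distance was the loop of Gdf3 at 49.9 kb, and just outside were a loop of Lefty1 at 51.6 kb and a loop of Nodal at 54.7 kb.

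The loop around Lefty1 and Lefty2 was identical in the 3 lists. It joined 180880001-180890000, which ends 3.11 kb before Lefty2, with 180970001-180980000 in Tmem63a, 31.6 kb beyond Lefty1. It spans 90 kb, so that Lefty2 and Lefty1 lie between its anchors. Loops of at most 90 kb made up 8.73% of the Brg1KD list, 8.64% of the Ino80KD list and 8.55% of the control list. A larger loop of 260 kb around the same genes, between Sde2 and Nvl, was in the control list alone, and the nearest loop of either knockdown list differed by 130 kb. Beyond Lefty1, a loop from Ephx1 to 181540001-181550000 was in the Ino80KD and control lists, and the nearest loop of the Brg1KD list differed by 470 kb. A shorter loop from Ephx1 ended at 181070001-181080000 in both knockdown lists, and 10 kb further in control.

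Cer1 also lay inside a loop in every list. Its first anchor was 82640001-82650000, and the second was 82920001-82930000, in Frem1, in Brg1KD and in control and 10 kb further in Ino80KD. A shorter loop of 130 kb between Zdhhc21 and Frem1, with Cer1 inside, was in the Ino80KD and control lists and not in the Brg1KD list, where the nearest loop differed by 160 kb. Frem1 was also joined to a point beyond the gene in the 2 knockdown lists, by loops of 220 kb in Brg1KD and 230 kb in Ino80KD with an anchor 64.8 kb from Cer1. The nearest control loops differed from these by 240 and 250 kb. A loop around Cer1 was therefore listed both where Cer1 was in A.2.2 and where it was in B.1.1.

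At the ligands, Nodal had a loop within 50 kb in Brg1KD alone, joining Adamts14 (61200001-61210000) to 61400001-61410000, which ends 7.97 kb before Nodal. The nearest loop in the Ino80KD and control lists differed by 70 kb, and it is the Adamts14 to Pald1 loop found in all 3 lists. Gdf3 had a loop in control alone, from 122660001-122670000 between Dppa3 and Nanog to 122790001-122800000 in Slc2a3, a glucose transporter gene, with Nanog inside. In the knockdown lists the anchor nearest to Gdf3 was 315 kb away in Brg1KD and 305 kb away in Ino80KD, where the median over all protein-coding genes was 35.0 and 40.6 kb. Tdgf1 had no anchor within 50 kb in any list, and its nearest anchor lay at 69.6 kb in Brg1KD, 134 kb in Ino80KD and 59.6 kb in control.

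**Figure D2:**
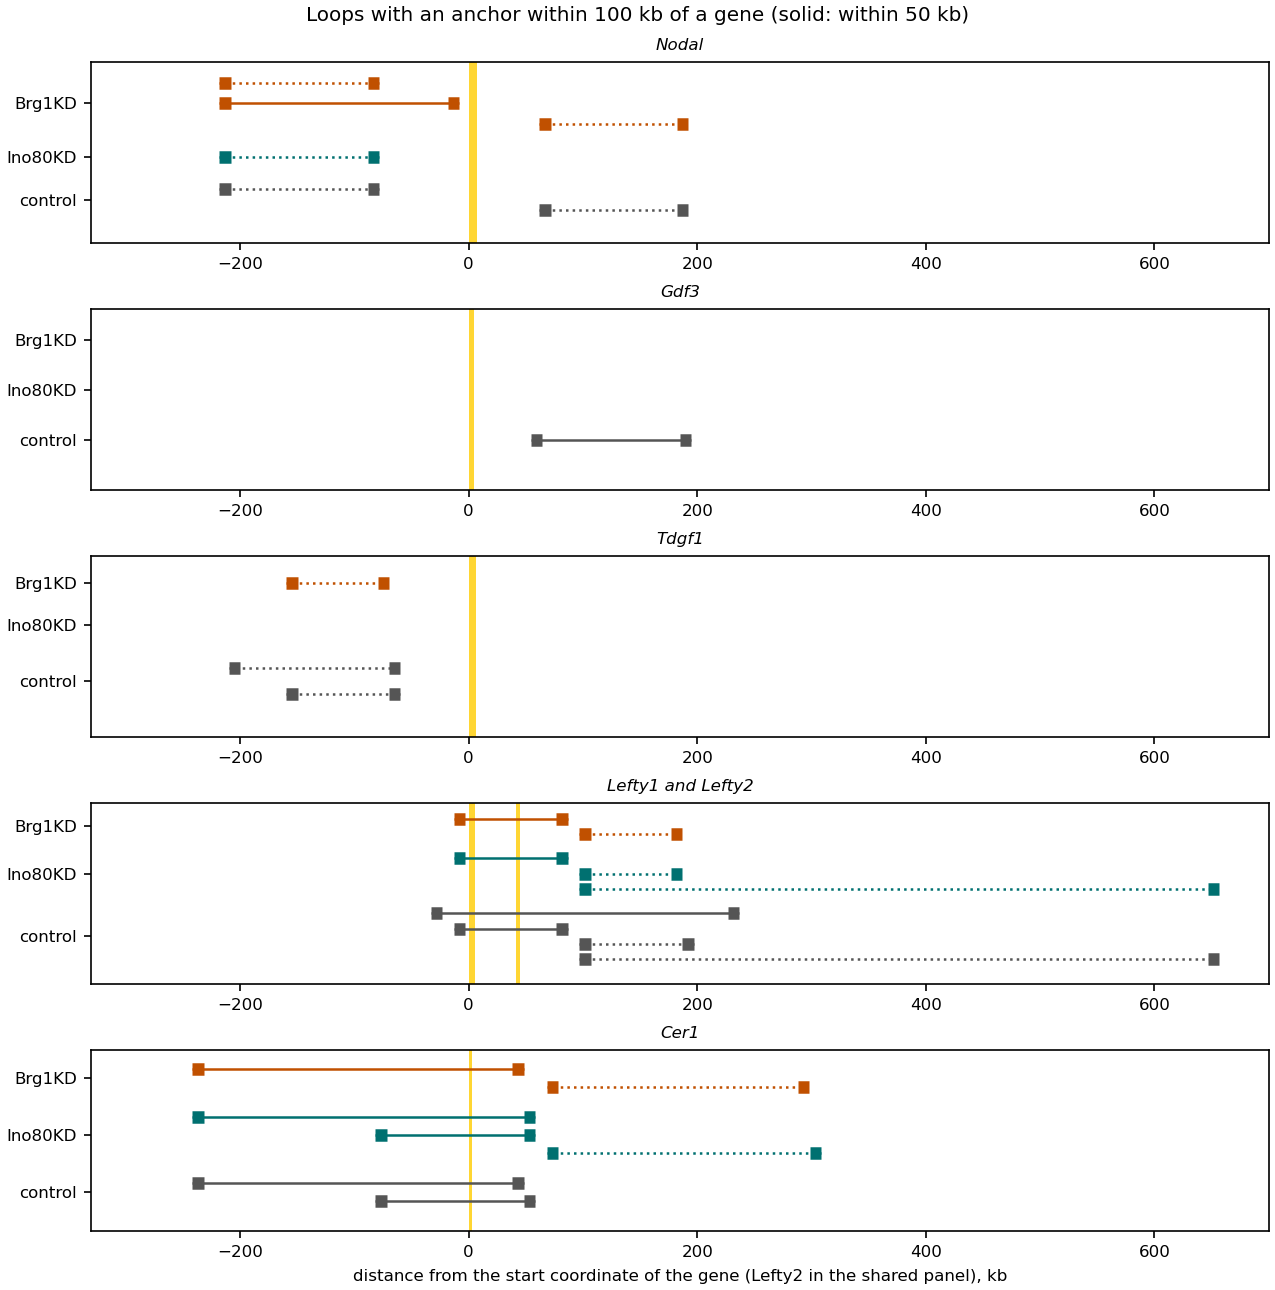
Loops with an anchor within 100 kb of a gene, drawn as lines between 2 anchors of 10 kb against the distance in kb from the start coordinate of the gene (yellow), for the Brg1KD, Ino80KD and control lists; solid lines have an anchor within 50 kb and dotted lines do not. The 90 kb loop around Lefty1 and Lefty2 is at the same place in the 3 lists, while the solid loop of Nodal is in the Brg1KD list alone and that of Gdf3 in the control list alone.

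Of the other 34 genes of the pathway, listed by role, none was apart from control towards A in either knockdown. Over all protein-coding genes this held for 3.29% in Brg1KD and 1.97% in Ino80KD. A.1.1 is the highest class, so a gene with a control in A.1.1 could not be apart towards A. Gsc was apart towards B in Brg1KD, and no gene of the 34 in Ino80KD, against 4.34% and 2.86% of all genes. With 34 genes these counts lie near the background. By limma with Benjamini-Hochberg adjustment over all bins 0 of the 34 passed in Brg1KD, where 1.49% of all genes passed towards A and 1.99% towards B. In Ino80KD 0 passed as well, where 0.918% of all genes passed towards A and 1.55% towards B. At an unadjusted p under 0.05 limma also gave 0 of the 34 in either knockdown, against 4.26% of all genes in Brg1KD and 2.93% in Ino80KD, shares at which about 1 gene of 34 would pass. The limma p-values are not calibrated, because the ranks are whole numbers and 18941 of 47717 bins have no residual spread. The median shift of the 34 was 0 classes in both comparisons, as it was over all genes. Of the 34, 18 had the same label in all 6 libraries and 14 of these were A.1.1 throughout, against 44.8% and 30.5% of all protein-coding genes.

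Among the ligands, receptors and effectors, Gdf1, Inhbb, the convertase gene Furin, the receptor genes Acvr1b and Acvr2b, and Foxh1, Drap1 and Trim33 were A.1.1 throughout. Smad4 was A.1.2 throughout. Smad2 and Smad3 were each 1 class lower in Ino80KD replicate 1 than in every other library. Inhba, which encodes an activin subunit, and the receptor gene Acvr1c lay in B. Inhba had ranks 2 and 3 in Brg1KD and 1 and 1 in Ino80KD, against 1 and 3 in control, so its groups overlapped. Cfc1, the other EGF-CFC co-receptor, had ranks 7 and 7 in Brg1KD and 6 and 7 in Ino80KD, against 7 and 7 in control.

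None of the other 9 antagonists and inhibitors had the 6 labels of Lefty1 and Lefty2 or of Cer1. Dand5, a relative of Cer1, the inhibitor Smad7 and the repressors Skil, Tgif1 and Tgif2 were A.1.1 in all 6 libraries. Ski differed in 1 Ino80KD library. Fst, which encodes the activin-binding protein follistatin, had the largest mean difference of the 34 genes in Ino80KD. Its ranks were 6 and 5 in Brg1KD and 6 and 6 in Ino80KD, against 3 and 6 in control, so the difference of 1 class in Brg1KD and 1.5 classes in Ino80KD rests on control replicate 1. Among the targets, Gsc, a homeobox gene of mesendoderm, had ranks 6 and 6 in Brg1KD and 6 and 7 in Ino80KD, against 7 and 7 in control (adjusted p = 0.733 in Brg1KD by limma). Eomes, T, Lhx1, Fgf8 and Foxa2 differed from control by 0.5 classes or less in either direction, each with overlapping groups. Wnt3 was A.2.1 in all 6 libraries.

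**Figure D3:**
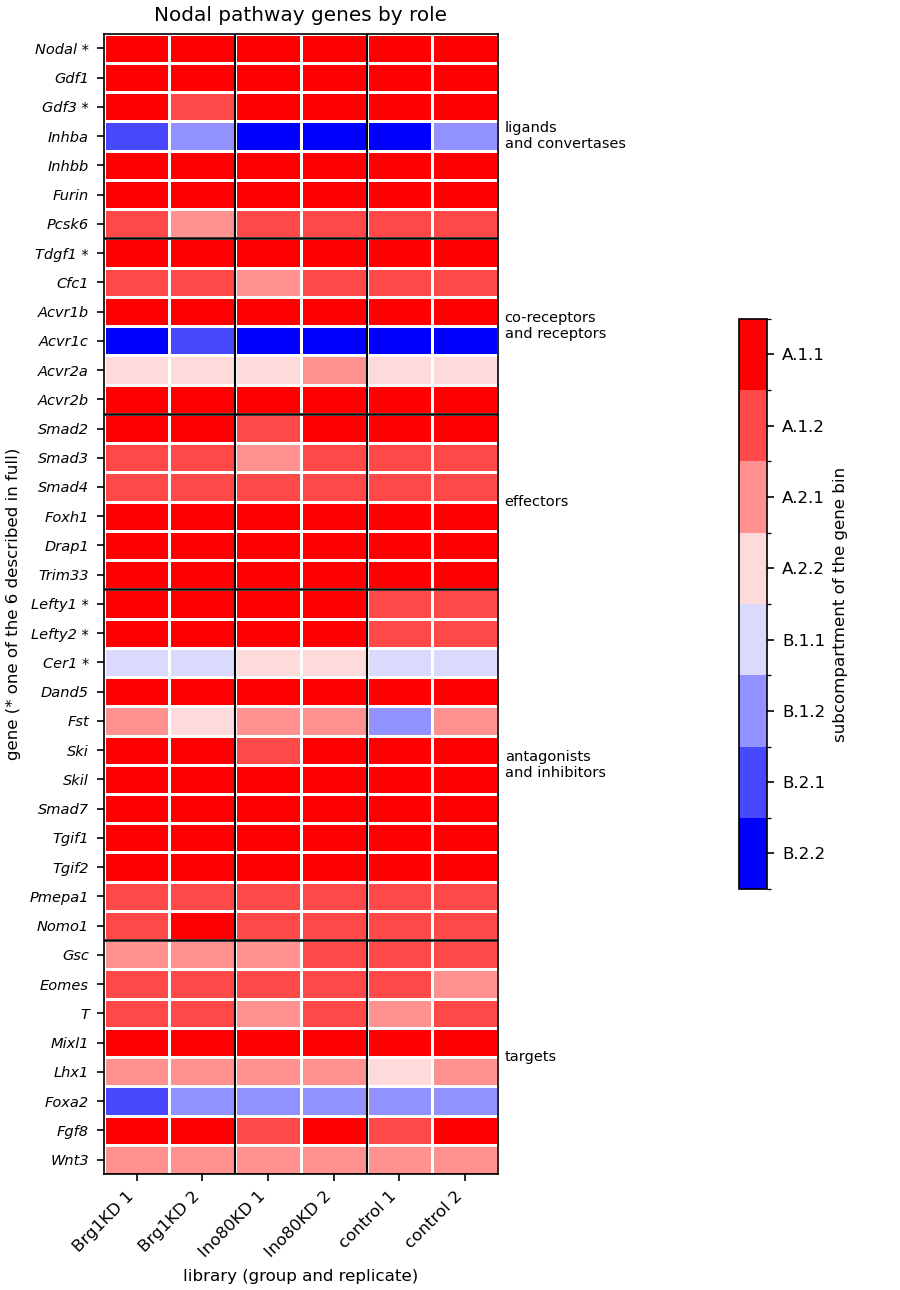
Subcompartment of the bin of 39 Nodal pathway genes (rows, grouped by role; an asterisk marks the 6 genes described in full) in the 6 libraries (columns). Lefty1 and Lefty2 differ between both knockdowns and control, Cer1 between Ino80KD and control, and Gsc between Brg1KD and control; no other gene drawn has both libraries of a knockdown beyond both controls.

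Across the whole genome, 47717 bins had a label in every library, and 62.1% to 71.7% of them had the same label in any 2 libraries. The 2 replicates of a group shared 68.3% of labels in Brg1KD, 69.5% in Ino80KD and 68.9% in control. Pairs from different groups spanned the full range, with the highest share between Ino80KD replicate 2 and control replicate 2. Agreement within a group was thus not above that of every pair across groups, which limits the reading of a difference of 1 class. The 6 marker genes of pluripotent cells, Pou5f1, Sox2, Nanog, Esrrb, Zfp42 and Klf4, had ranks of 7 or 8 in all libraries, but 3 of the 4 fibroblast genes were also in A in all libraries, and Col1a2 alone lay in B, so the markers give little check of the cell type. Neither set had a gene apart from control.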

How the data were processed

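The submitters' processing notes name the build mm10 and the tools bedtools, BWA, HOMER, Juicer 2.0 and SAMtools, without their roles. The callers of subcompartments and loops, and thresholds, were not stated there. The authors deposited, for each library, labelled segments whose score places the class in 8 equal steps within that library, with no depth. They also deposited 1 list of loop anchor positions per group, recorded with replicate 2 and taken as pooled because the names say merged.

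Segments were cut into 50 kb bins, and genes were placed at the midpoint of their RefSeq extent (GRCm38.p6). All 6 libraries were fitted on the 3 groups with limma 3.58.1 in R 4.3.3 (threshold 0.05, tested on simulated data, where unchanged bins were also called), and its calls serve as background. Windows were 250 kb for bins and 50 kb for loops. The batch number pairs libraries per the labels (correlation of deviations 0.0885 to 0.102), and the block is an alternative. Alternatives were the bin size, the windows, a common variance, and leaving out each library. Members and lists were chosen with earlier results of these data known. All 6 genes were described. Of the pathway list, up to 4 genes each way with the largest shift could be named per knockdown, and others serve as examples. 1 gene of that list is counted but not reported here by name. Neighbours were named where their bin was apart or a loop anchor met them.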

Additional observations from a re-analysis of the deposited data

How the results depend on the processing

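The genes apart from control towards A were Lefty1 and Lefty2 in Brg1KD, and these with Cer1 in Ino80KD. The same genes were apart over the gene body, over the bins within 100 kb or 250 kb, and without any single library, and with the replicate block the counts were again 2 and 3. As the labels at these 3 genes were identical within each group, leaving out a library or blocking could not change their shifts. The gene body and the windows could not bring the groups to overlap either. Each gene body lies within its bin. The bins outside the segment of Lefty1 and Lefty2 were the same in every library, and no bin around Cer1 was lower in Ino80KD than in control. The size depended on the window: at Lefty1 and Lefty2 1 class became 0.40 within 100 kb and 0.18 within 250 kb, and at Cer1 in Ino80KD it became 0.80 and 0.50. At Gdf3 in Brg1KD the shift was -0.5 at the gene and 0.23 over 250 kb, where 5 further bins enter in which Brg1KD replicate 2 alone lay higher.

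The background calls moved more. By limma 4.83% of bins were called in Brg1KD and 3.22% in Ino80KD, with the replicate block 5.34% (2547 bins) and 3.52% (1679 bins). A common variance gave 0.683% in Ino80KD. Without 1 library, limma called 8.08% to 11.5% in Brg1KD and 5.17% to 9.86% in Ino80KD. Bins apart from control were 10.3% and 6.25%, and without 1 library 19.8% to 22.2% in Brg1KD and 15.0% to 18.2% in Ino80KD, since a lone library lies beyond the other group more easily. Bins of 10 kb gave the same shares, since every segment ends on a 50 kb boundary. Loops near the genes numbered 3 in Brg1KD, 3 in Ino80KD and 5 in control. Within 10 kb they were 2, 1 and 1, and within 100 kb 8, 7 and 11, so the excess in control depends on the distance allowed. Depth is unknown, which limits what a missing loop can show.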

Other observations

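Short A.1.2 segments of at most 100 kb inside A.1.1, the kind in which Lefty1 and Lefty2 lie in control, were counted in each library after the segment at these genes had been seen. They numbered 5 and 2 in Brg1KD and 4 and 3 in Ino80KD, against 9 and 12 in control, so neither knockdown overlapped control. Both control counts include the segment of Lefty1 and Lefty2, from which this kind of segment was defined. The counts are therefore a description and were not tested.

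Genes with similar rank profiles over 11 bins and 6 libraries were searched for, with 1 gene kept per bin. Genes within 1 Mb of any of the 6 genes were left out beforehand. Among those most like Lefty1 (mean absolute difference 0.0303 classes) were Bop1 and Dag1, and for Lefty2 Mroh1 and Mrpl38. None of these has the 6 labels of Lefty1 and Lefty2 in its own bin. For Cer1 the nearest of the genes kept in the search were the predicted genes Gm16440 and Gm40862 (0.121) and Gm21103 (0.136). Zdhhc21, which lies in the segment of Cer1 and has its 6 labels, was among the genes left out.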
